A study of Mus musculus with 24 samples.

Results

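The genes described are the GDNF family ligands Gdnf, Nrtn and Artn, their co-receptors Gfra1, Gfra2 and Gfra3, and the shared receptor Ret. They were chosen by name, with no measured value in the rule, and make up 7 of the 24421 gene symbols of the RNA-seq table and of the 24411 symbols of the MeRIP-seq table. Sites of N6-methyladenosine (m6A), the methyl mark on adenosines inside messenger RNA, were read for the same genes from 2 lists made by miCLIP, which crosslinks an m6A antibody to RNA and finds the marked base from mutations in the reads.

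GDNF family ligands are secreted survival and growth factors for sensory, autonomic, motor and enteric neurons. Each ligand binds to a preferred co-receptor held on the cell surface by a lipid anchor, GDNF to GFRα1, neurturin to GFRα2 and artemin to GFRα3, and the complex then brings together and activates RET, a receptor tyrosine kinase. In dorsal root ganglia (DRG), the clusters of sensory neuron cell bodies beside the spinal cord, Ret marks most non-peptidergic nociceptors and some mechanoreceptors, and the ligands are made largely by target tissue and by Schwann cells of a damaged nerve.

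All samples were L4/5 DRG of C57BL/6 mice. RNA-seq covered 4 groups of 3 libraries: Mettl14cKO at SNLD1, wild type at SNLD1, Mettl14cKO naive and wild type naive. SNLD1 is 1 day after a sciatic nerve lesion, which damages the peripheral axons of these neurons, and Mettl14cKO is a conditional knockout of Mettl14, listed under genotype as Mettl14-/-. One treatment text covers all libraries and names both sham surgery and a crush of the nerve, while the control titles say naive, so whether the controls had sham surgery is not settled by the labels. The labels name neither the Cre line nor the cells in which Mettl14 was deleted, and they do not say that libraries of a group came from separate animals, so p-values measure the spread between these libraries. MeRIP-seq, in which an m6A antibody pulls down marked RNA fragments (IP) that are sequenced beside unselected RNA (input), covered wild type: 3 IP and 2 input libraries at SNLD1, and 3 IP and 2 input libraries from naive mice. The 2 miCLIP libraries were wild type, 1 titled SNL with no day given and 1 naive.

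The miCLIP lists held 39 sites of these genes in the SNL library and 13 in the naive library, in Ret, Gfra1, Gfra2 and Gfra3. The 4 adenosines below are shown first because both libraries listed them, once in each condition and so without a replicate. Each sequence is the deposited 5-base window, written 5′ to 3′ on the strand of the site, with the methylated adenosine in capitals, and coordinates are mm10.
Ret site 1, chr6:118197172-118197176, minus strand: agAcc
Ret site 2, chr6:118180320-118180324, minus strand: tgAct
Ret site 3, chr6:118178590-118178594, minus strand: agAct
Gfra2 site 1, chr14:70890546-70890550, plus strand: tgAcc
Gfra1 was listed in the SNL library alone, and its site with most mutated reads and its most deeply read site stand near opposite ends of the gene.
Gfra1 site near the 5′ end, chr19:58453422-58453426, minus strand: ggAcc
Gfra1 site near the 3′ end, chr19:58238142-58238146, minus strand: ggAct
Ret also had 5 sites within 81 bases, 3 from the SNL list and then 2 from the naive list, shown because both libraries listed this stretch but at different bases.
Ret SNL, chr6:118176292-118176296, minus strand: tgAca
Ret SNL, chr6:118176232-118176236, minus strand: tgAcc
Ret SNL, chr6:118176216-118176220, minus strand: agAca
Ret naive, chr6:118176224-118176228, minus strand: agAcc
Ret naive, chr6:118176212-118176216, minus strand: agAcc

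RNA-seq libraries held 5707837 to 12639160 counts and MeRIP-seq libraries 846785 to 19653733. Levels are in CPM, counts scaled to a common library total with trimmed mean of M-values (TMM) factors. Mettl14 had 14.2 to 18.9 CPM in the 6 Mettl14cKO libraries, against 19.4 to 24.1 CPM in the 6 wild-type libraries, with no overlap. Its log2 difference was −0.36 (SE 0.17, adjusted p = 0.345) at SNLD1 and −0.55 (SE 0.17, adjusted p = 0.316) in naive DRG, so neither was called, and counts of whole genes include any part of Mettl14 that was not deleted. The lesion marker Atf3 rose in wild type by 5.27 on the log2 scale (SE 0.27, adjusted p = 2.49e-09) and in Mettl14cKO by 3.44 (SE 0.25, adjusted p = 4.53e-07). Pan-neuronal markers summed to 6964 to 9787 CPM over the 12 libraries, with every one of the 6 markers detected in each. Summed CPM of the Y-linked genes Ddx3y, Eif2s3y, Kdm5d and Uty was at or near 0 in some libraries of every RNA-seq group, and reached 314 CPM in Mettl14cKO SNLD1, 468 CPM in wild-type SNLD1, 412 CPM in Mettl14cKO naive and 468 CPM in wild-type naive DRG. The labels give no sex, and each RNA-seq result was also fitted with this sum as a covariate.

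The ligands were close to undetected in these ganglia. Over the 12 RNA-seq libraries, Nrtn had 0 of 94423263 counts, which allows a level of up to 0.0318 CPM. Gdnf had 2 counts, both in wild-type SNLD1 library 2. Artn had 5 counts: 0 in the 6 Mettl14cKO libraries, then 0, 1 and 2 in wild-type SNLD1 libraries 1 to 3 and 1, 0 and 1 in wild-type naive libraries 1 to 3. All 3 ligands fell below the filter on low counts in both tables, and no difference between groups was detectable at this depth. In MeRIP-seq, Gdnf had 26 counts of 73905027 in 5 of 10 libraries, Nrtn 4 counts in 3 libraries and Artn 6 counts in 2. The Gdnf counts were 8, 0 and 1 in SNLD1 IP libraries 1 to 3 and 0 and 4 in the SNLD1 inputs, against 11, 0 and 0 in naive IP and 0 and 2 in naive inputs. Neither miCLIP list held a site of Gdnf, Nrtn or Artn. A count of 0 allows up to 0.0161% of the sites of the SNL list and 0.0208% of those of the naive list, and this limit covers counting error only.

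The receptors were all detected in all 22 sequencing libraries of the 2 count tables. Ret, Gfra1, Gfra2 and Gfra3 passed the filter in both tables, and they are the 4 tested members.

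**Figure D1:**
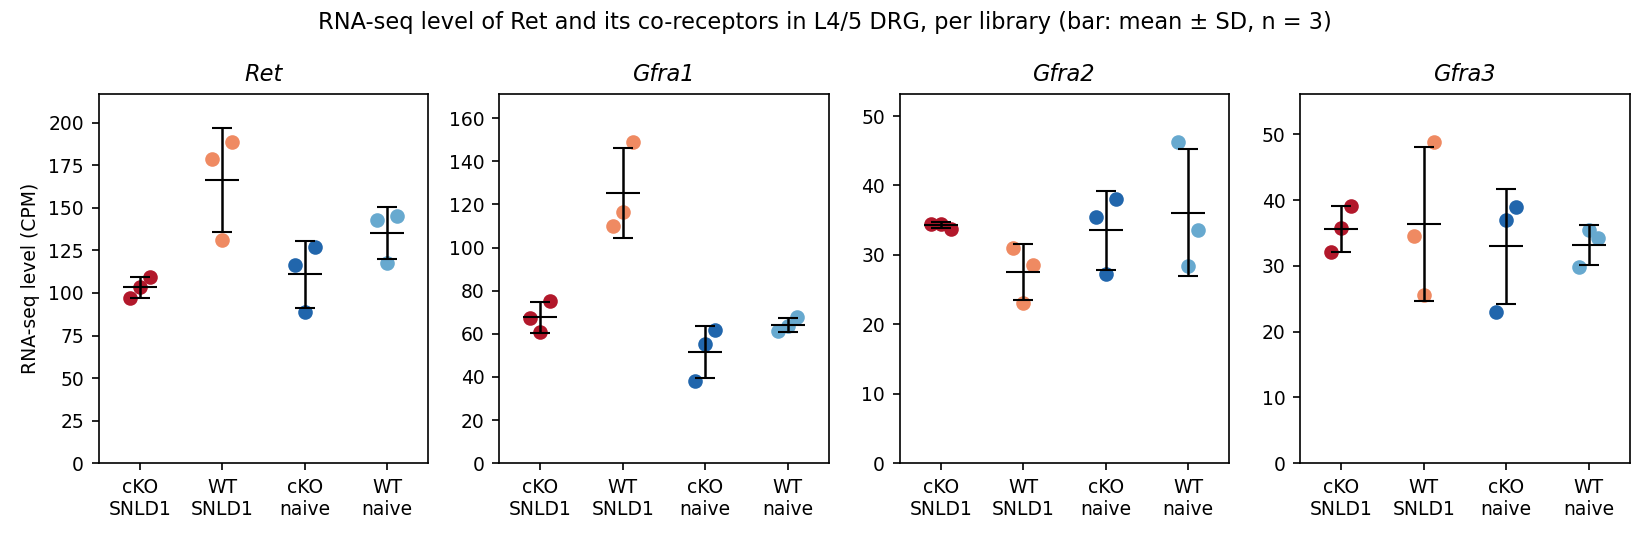
RNA-seq level in CPM (vertical axis, from 0, a separate scale per gene) of the 4 receptor genes in each library, by group, with bars at the mean ± SD of 3 libraries. Gfra1 stands highest in the 3 wild-type SNLD1 libraries (110.1 to 149.1 CPM) and at 60.7 to 75.1 CPM in the Mettl14cKO SNLD1 libraries, and Ret in Mettl14cKO SNLD1 (97.1 to 109.4 CPM) lies below wild-type SNLD1 (131.3 to 188.9 CPM).

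Gfra1, which encodes the co-receptor that presents GDNF to RET, was the member that moved most. After the lesion in wild type it had 110.1, 116.7 and 149.1 CPM in SNLD1 libraries 1 to 3 (125.3 ± 20.9, SD, n = 3), against 61.1, 63.5 and 67.8 CPM in naive libraries (64.2 ± 3.38). Every wild-type SNLD1 library was above every wild-type naive library. The rise was 1.95-fold (log2 0.97, SE 0.18, edgeR adjusted p = 0.00937), and Gfra1 was 1 of 4 tested members called higher, where 0.948% of the 13291 genes tested were called higher. In bulk ganglia, more or fewer cells of a type and more or less RNA per cell cannot be told apart. Of the 6 pan-neuronal markers 0 were called in this comparison, and their sum was 8606 to 9774 CPM at SNLD1 and 9378 to 9787 CPM in naive wild type. The Gfra1 call rested in part on single libraries, with adjusted p = 0.0929 without wild-type SNLD1 library 3 (log2 0.81) and adjusted p = 0.0752 without wild-type naive library 1.

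In Mettl14cKO the same lesion gave Gfra1 levels of 67.5, 60.7 and 75.1 CPM at SNLD1 (67.8 ± 7.16), against 38.3, 55.2 and 61.6 CPM in naive ganglia (51.7 ± 12.05). The lowest SNLD1 library lay just under the highest naive library, so the groups overlapped. The log2 difference was 0.39 (SE 0.18, edgeR adjusted p = 0.460). No member was called in this comparison by edgeR or DESeq2, where 0.685% of genes were called (0.624% higher and 0.0602% lower), and Gfra1 was the 1 member at an unadjusted p under 0.05.

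Set against wild type at SNLD1, Gfra1 was 1.85-fold lower in Mettl14cKO, at the 67.5, 60.7 and 75.1 CPM given above against 110.1, 116.7 and 149.1 CPM. The highest Mettl14cKO library was below the lowest wild-type library (log2 −0.89, SE 0.18, edgeR adjusted p = 0.0199). It was 1 of 4 members called lower, beside 0.512% of all genes called lower and 1.46% called in either direction. This comparison and the wild-type injury comparison share the 3 wild-type SNLD1 libraries, so their values are not independent. In naive ganglia the log2 difference was −0.31 (SE 0.18, adjusted p = 0.778), with 38.3 to 61.6 CPM in Mettl14cKO and 61.1 to 67.8 CPM in wild type. The difference between the injury effects of the 2 genotypes was −0.58 (SE 0.25, edgeR adjusted p = 0.998) and was not called. The genotype call at SNLD1 was lost without wild-type SNLD1 library 3 (edgeR adjusted p = 0.132, log2 −0.74). It was also lost without Mettl14cKO SNLD1 library 1 (0.107, log2 −0.88) or library 2 (0.0840, log2 −0.81). Over all 6 fits that left out 1 library, the log2 difference ran from −0.97 to −0.74.

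Several markers of other cells differed between the same SNLD1 groups, where 0.948% of all genes were called higher and 0.512% lower. Fibroblast markers summed to 2583 to 4223 CPM in Mettl14cKO SNLD1 and 1658 to 2094 CPM in wild-type SNLD1 libraries, and 2 of 5, Dcn and Pdgfra, were called higher. Myelinated sensory neuron markers summed to 966 to 1026 CPM in Mettl14cKO and 1305 to 1424 CPM in wild type, with 1 of 5 tested markers, Nefh, called lower. Those markers did not overlap in naive ganglia either, at 969 to 1198 CPM in Mettl14cKO and 1368 to 1754 CPM in wild type. Nor did the fibroblast markers in naive ganglia, at 1948 to 3318 CPM in Mettl14cKO and 1679 to 1897 CPM in wild type. Satellite glia markers summed to 2053 to 2132 CPM in Mettl14cKO SNLD1 and 2450 to 3911 CPM in wild-type SNLD1 libraries, without overlap, and 0 of 5 were called. Pan-neuronal markers, at 7197 to 9527 CPM in Mettl14cKO and 8606 to 9774 CPM in wild type, overlapped, and 0 of 6 were called. Summed markers of peptidergic nociceptors, itch neurons, C-fibre low-threshold mechanoreceptors and both kinds of Schwann cell, myelinating and non-myelinating, also overlapped at SNLD1. So did those of macrophages, endothelial cells, neutrophils and skeletal muscle. Non-peptidergic nociceptor markers, the class in which Ret is best known, summed to 252 to 318 CPM in Mettl14cKO and 288 to 398 CPM in wild type, with 0 of 4 tested called. The lesion markers Atf3, Sox11, Gadd45a and Sprr1a summed to 311 to 374 CPM in Mettl14cKO and 431 to 821 CPM in wild type, with 1 of 3 tested, Atf3, called lower. The part of these differences in the levels of Gfra1 and Ret was not tested.

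Ret, the signalling receptor of the family, stood lower in Mettl14cKO after the lesion but missed the threshold. It had 97.1, 103.3 and 109.4 CPM in Mettl14cKO SNLD1 libraries (103.3 ± 6.14, SD, n = 3), against 179, 131.3 and 188.9 CPM in wild-type SNLD1 libraries (166.4 ± 30.8). Every Mettl14cKO library was below every wild-type library. The difference was 1.61-fold (log2 −0.69, SE 0.17, edgeR adjusted p = 0.0575). Its side of the threshold depended on the fit. The adjusted p was 0.0104 with DESeq2 and 0.00887 with edgeR without a filter on low counts. With edgeR it was 0.0203 with the Y-linked sum as a covariate, which was chosen after seeing the data. Without wild-type SNLD1 library 2 it was 0.0295. Over the fits that left out 1 library of these groups, Ret stayed uncalled in 5 of 6, with edgeR adjusted p up to 0.255.

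In naive ganglia Ret had 116.7, 89 and 127 CPM in Mettl14cKO (110.9 ± 19.6), against 142.9, 117.7 and 145.4 CPM in wild type (135.3 ± 15.4). The groups overlapped, with a log2 difference of −0.29 (SE 0.17, edgeR adjusted p = 0.799). No member was called between genotypes in naive ganglia by edgeR or DESeq2, where 0.286% of genes were, and none had an unadjusted p under 0.05. Ret was not called with the lesion: its log2 difference of SNLD1 over naive was −0.10 (SE 0.17, adjusted p = 0.875) in Mettl14cKO and 0.30 (SE 0.17, adjusted p = 0.820) in wild type. The difference between these injury effects was −0.40 (SE 0.24, adjusted p = 0.998).

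Gfra2, the neurturin co-receptor, did not pass in any comparison. Its SNLD1 levels were 34.5, 34.5 and 33.8 CPM in Mettl14cKO and 31, 23.1 and 28.6 CPM in wild type, and its naive levels were 35.4, 27.2 and 38.1 CPM in Mettl14cKO and 46.3, 28.4 and 33.6 CPM in wild type. At SNLD1 the 3 Mettl14cKO libraries all stood above the 3 wild-type libraries, by a log2 of 0.32 (SE 0.20, adjusted p = 0.499), which is the opposite sign to Gfra1 and Ret. The log2 change with the lesion was 0.03 (SE 0.20, adjusted p = 0.978) in Mettl14cKO and −0.39 (SE 0.20, adjusted p = 0.729) in wild type, and the wild-type groups overlapped.

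Gfra3, the artemin co-receptor and in DRG a marker of peptidergic nociceptors, stayed nearest to no difference. It had 32.1, 35.7 and 39.1 CPM in Mettl14cKO SNLD1, 34.6, 25.6 and 48.9 CPM in wild-type SNLD1, 23, 37 and 38.9 CPM in Mettl14cKO naive and 29.8, 35.5 and 34.3 CPM in wild-type naive libraries. All pairs of groups overlapped. Its log2 differences in the 4 group comparisons lay between −0.03 and 0.13 with SE of 0.22 to 0.23, and its adjusted p was 0.903 or more in each.

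**Figure D2:**
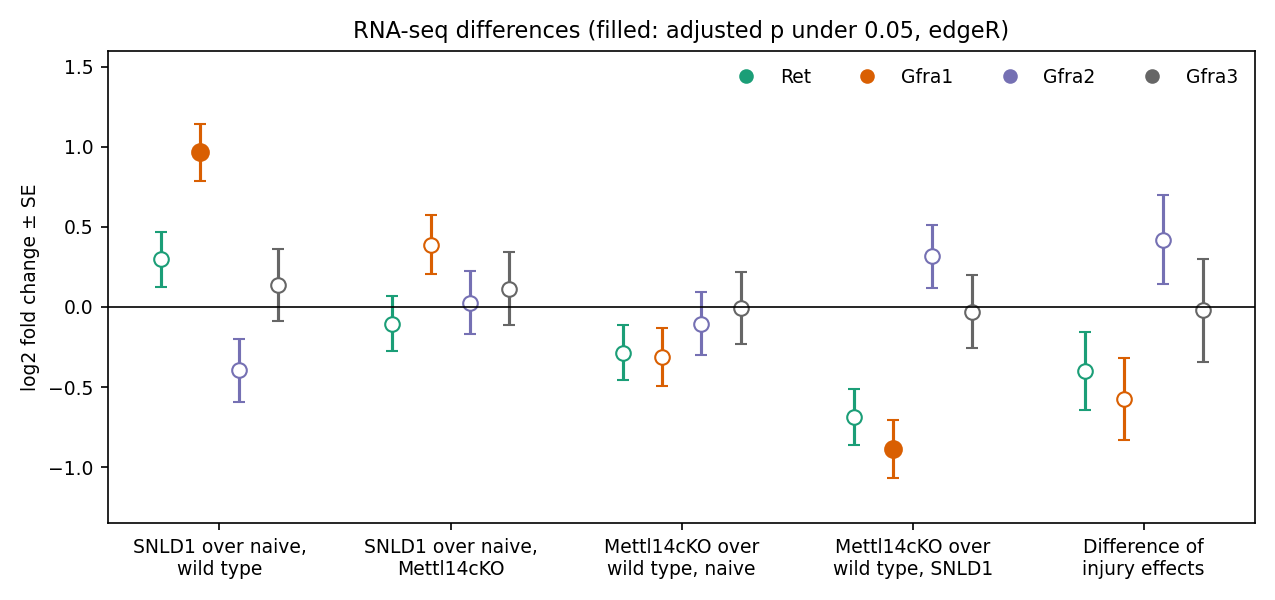
log2 fold change ± SE of the 4 tested members in the 5 RNA-seq comparisons, from the edgeR fit to all 12 libraries, with filled points called at an adjusted p under 0.05. Gfra1 is filled in the wild-type injury comparison (0.97) and in the genotype comparison at SNLD1 (−0.89), where Ret (−0.69) is open, and no point is filled for the difference of injury effects.

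No gene of the 13291 was called for the difference of injury effects by edgeR (0% of genes), and 492 had an unadjusted p under 0.05. Of the members, 0 were called by edgeR or DESeq2 and Gfra1 alone was under an unadjusted p of 0.05. The tested members had a median log2 difference of −0.36 at SNLD1 and −0.19 in naive ganglia, beside 0.00 and 0.00 over all genes.

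The rest of the pathway was read from a list of 45 genes, 33 of them tested. Between genotypes at SNLD1, 0 were called higher and 1 lower, beside 0.948% higher and 0.512% lower among all genes tested, with a median log2 of −0.10 beside 0.00 over all genes. In naive ganglia 0 were called in either direction (median 0.03), beside 0.286% of all genes. After the lesion, 0 were called higher and 1 lower in Mettl14cKO (median −0.20, all genes 0.01), beside 0.624% higher and 0.0602% lower among all genes. In wild type 0 were called (median 0.00, all genes −0.01), beside 1.02% of all genes. Among other ligands and receptors, Gfra4, the persephin co-receptor, ran from 1.64 to 4.63 CPM over the 12 libraries and was not called in any comparison. Pspn, which encodes persephin, had 1 count in all, Gfral, the GDF15 receptor, 6 counts in 3 libraries, and Gdf15 1 or 2 counts in 6 libraries and 0 in the others. The alternative GDNF receptors Sdc3 (7.21 to 14.05 CPM) and Ncam1 (65.1 to 110.4 CPM) were not called in any RNA-seq comparison.

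Of the called pair, Dok5, which encodes a docking protein that binds activated RET, had 8.7, 3.8 and 9.4 CPM in Mettl14cKO SNLD1, against 21.8, 13.2 and 27 CPM in wild-type SNLD1. All Mettl14cKO libraries were below all wild-type libraries (log2 −1.501, SE 0.30, edgeR adjusted p = 0.0174). Naive levels were 8.67 to 9.25 CPM in Mettl14cKO and 10.6 to 11.8 CPM in wild type, and the wild-type lesion difference was 0.89 (SE 0.28, adjusted p = 0.225). The genotype call was lost with only these 2 groups in the fit (adjusted p = 0.0629) and without wild-type SNLD1 library 1 (0.0569) or 3 (0.113) or Mettl14cKO SNLD1 library 1 (0.0601) or 2 (0.0575). Sos1, the exchange factor that couples adaptors to Ras, fell with the lesion in Mettl14cKO, to 30.7, 24.1 and 30.6 CPM at SNLD1 against 51.6, 45.4 and 44.3 CPM in naive libraries, with no overlap (log2 −0.73, SE 0.16, edgeR adjusted p = 0.0457). That call was lost with only these 2 groups in the fit (0.0990) and without any 1 of the 6 libraries (0.0715 to 0.225).

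Across the 12 RNA-seq libraries, log2 CPM of Ret and Gfra1 correlated at r = 0.667, and at 0.164 after the 4 group means were removed. Ret and Gfra2 showed the reverse order, with r = −0.003 and 0.784 after removal of group means, as did Gfra1 and Gfra3 with 0.439 and 0.830. These points share library, depth and group and are given as a description. Among 9560 other genes averaging 5 CPM or more, the 3 most like Ret were Arl4c (r = 0.946, and 0.839 after removal of group means), Gpr137b-ps (0.926, 0.896) and Scg3 (0.919, 0.738). Those most like Gfra1 were Scpep1 (0.950, 0.855), Slc41a2 (0.929, 0.907) and Nfe2l2 (0.925, 0.795). For Gfra2 they were Arglu1, Cep170b and Ppm1g (r of 0.832 to 0.886), and for Gfra3 Gpatch1, 2210018M11Rik and Maged1 (0.861 to 0.888).

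In the wild-type MeRIP-seq libraries Gfra1 was highest in the pulldown after the lesion, but no gene was called in any MeRIP-seq comparison. Gfra1 had 548.2, 387 and 209.8 CPM in SNLD1 IP libraries 1 to 3 and 101.1 and 173.1 CPM in the SNLD1 inputs. In naive ganglia it had 259.6, 214.9 and 110.5 CPM in IP libraries and 98.1 and 112.5 CPM in inputs. At SNLD1 every IP library was above both inputs, while in naive ganglia the lowest IP library lay between the inputs. The log2 ratio of IP over input was 1.47 at SNLD1 (SE 0.81, edgeR adjusted p = 0.791) and 0.89 in naive ganglia (SE 0.79, adjusted p = 0.759), and its change with injury was 0.59 (SE 1.09, adjusted p = 0.9999). IP and input are scaled separately, so these ratios are relative to other genes and are not a stoichiometry.

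Within the IP libraries, Gfra1 was 2.11, 1.80 and 1.90 times its naive level at SNLD1 in libraries 1, 2 and 3 of the same number. The unpaired log2 difference was 0.97 (SE 0.69, edgeR unadjusted p = 0.181) and was not called. Without the pairing the groups overlapped, with naive IP library 1 (259.6 CPM) above SNLD1 IP library 3 (209.8 CPM). Ret was 1.17, 1.146 and 1.63 times its naive level in the same pairs of IP libraries. Its unpaired log2 difference was 0.43 (SE 0.69). In these pairs Gfra2 was 0.895, 0.824 and 1.06 times its naive level, and Gfra3 0.925, 1.09 and 1.75 times. The labels do not give this pairing, which was taken from the data. Within the input libraries the Gfra1 difference was 0.38 (SE 0.84), and −0.069 without SNLD1 input library 2. Gfra3 had 1.21 (SE 0.95) within input, 0.33 to 1.84 without one library. Depth limits these values: the smallest libraries were SNLD1 IP 2 (1534778 counts), SNLD1 input 1 (927807) and naive IP 2 (846785), and without them the Gfra1 IP difference was 1.02 (SE 0.88).

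Ret was not called between pulldown and input. It had 138.2, 141.4 and 259.8 CPM in SNLD1 IP and 172.4 and 500.8 CPM in SNLD1 input libraries, and 118.5, 123.5 and 159.4 CPM in naive IP and 171.3 and 315 CPM in naive input libraries. All naive IP libraries were below both naive inputs, and at SNLD1 the groups overlapped. IP over input was −0.91 at SNLD1 (SE 0.76, edgeR adjusted p = 0.791), 0.068 without SNLD1 input library 2, and −0.86 in naive ganglia (SE 0.76, adjusted p = 0.758).

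Gfra2 IP over input was 1.18 at SNLD1 (SE 0.88) and 0.66 in naive ganglia (SE 0.86). Library 1 was the highest in both IP groups, with 191.7 CPM in SNLD1 IP library 1 beside 52.1 and 94.2 CPM in the other two, and 214.1 CPM in naive IP library 1 beside 63.2 and 89.1 CPM. The naive ratio was −0.018 without naive IP library 1, and the SNLD1 ratio ran from 0.56 to 2.18 without one library. Gfra3 IP over input was −1.64 at SNLD1 (SE 0.84, edgeR adjusted p = 0.791) and −0.82 in naive ganglia (SE 0.85), with 11.5 to 47.1 CPM in SNLD1 IP, 58.3 and 152.2 CPM in SNLD1 inputs, 12.5 to 39.6 CPM in naive IP and 29.6 and 62.1 CPM in naive inputs. The Gfra3 SNLD1 ratio ran from −2.18 to −0.78 without one library and was −2.35 without the 3 shallow libraries. Of the 4 tested members, 0 were called in any of the 5 MeRIP-seq comparisons by edgeR or DESeq2 and 0 had an unadjusted p under 0.05, beside 0% of the 14705 genes called by edgeR. Between 30 and 915 genes had an unadjusted p under 0.05.

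**Figure D3:**
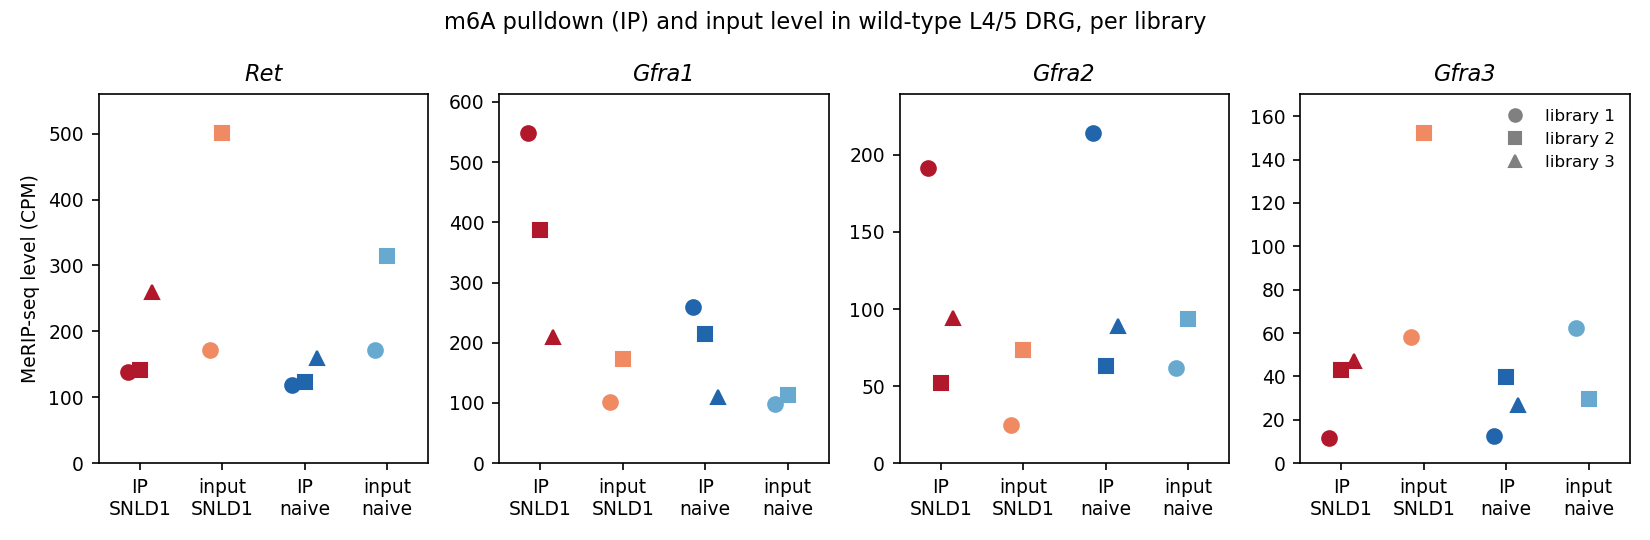
MeRIP-seq level in CPM (vertical axis, from 0, a separate scale per gene) of the 4 tested members in each wild-type IP and input library, with the marker shape giving the library number. Gfra1 IP at SNLD1 (209.8 to 548.2 CPM) lies above both SNLD1 inputs (101.1 and 173.1 CPM), and for Ret the SNLD1 input library 2 stands highest, at 500.8 CPM.

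Ret carried the most miCLIP sites of the family. It had 18 sites in the SNL list and 9 in the naive list, 24 distinct bases in all, in a span of 45997 bases (GRCm38.p6, chr6:118151748-118197744). Of 5650 genes with a site in the SNL list, 122 (2.16%) had at least as many as Ret, and of 4906 in the naive list 338 (6.89%) had. The median gene had 2 sites in either list. The lists hold 18677 SNL and 14446 naive sites from 1 library each, so no test of a difference was made.

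At Ret site 1, 570 bases from the 5′ end of the span, the mutated base was seen in 2 of 8 SNL reads (25%, 95% Clopper-Pearson interval 3.19 to 65.1%) and 2 of 4 naive reads (50%, 6.76 to 93.2%). Ret site 2 had 2 of 12 SNL reads and 1 of 8 naive reads, and Ret site 3 had 1 of 6 SNL reads and 1 of 3 naive reads. The intervals cover counting error only and overlap at each of these sites. The 5 Ret sites shown above lay 21450 to 21530 bases from the 5′ end with 4 to 7 reads each. A further 4, all from the SNL list, fell within 131 bases between 42319 and 42449 bases from the 5′ end. Within 4 kb of the 3′ end lay 5 of 18 SNL sites and 0 of 9 naive sites.

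Gfra1 had 13 sites in the SNL list (0.0696% of it) and 0 in the naive list. A count of 0 allows up to 0.0208% of the naive list, which covers counting error only and takes sites as independent. With 1 library per list, no test of a difference was made. In naive IP libraries Gfra1 had 110.5 to 259.6 CPM, beside 118.5 to 159.4 CPM for Ret, which had 9 naive sites. Gfra1 was below Ret in unselected RNA, with means of 105.3 and 243.1 CPM in naive inputs. The means in wild-type naive RNA-seq were 64.2 CPM for Gfra1 and 135.3 CPM for Ret. In the SNL list 239 genes (4.23%) had at least as many sites as Gfra1. At a cut-off of 13, which is the count of Gfra1 itself, 2 genes, Gfra1 included, had as many or more with none in the naive list. The Gfra1 span of 220366 bases (chr19:58235581-58455946) had 3 sites within 2565 bases of its 5′ end, the last of them at that distance, and 3 within 4 kb of its 3′ end. The site near the 5′ end shown above had 2 mutated of 5 reads (40%, 5.27 to 85.3%), and that near the 3′ end 1 of 11 (9.09%, 0.230 to 41.3%). Reads at Gfra1 sites numbered 2 to 11, and 12 of 13 sites had 1 mutated read. Gfra1 RNA was also 1.95-fold higher at SNLD1 in wild type, and the part of RNA level in whether a site is listed was not tested.

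Gfra2 had 6 SNL and 4 naive sites in chr14:70890107-70979840. The shared Gfra2 site 1, 441 bases from the 5′ end, was mutated in 1 of 4 SNL reads and 2 of 9 naive reads. Near the 3′ end lay 2 of the 6 SNL sites, 604 and 70 bases from it, and 3 of the 4 naive sites, 875 to 397 bases from it. Gfra3 had 2 SNL sites, 1702 and 1499 bases from the 3′ end, with 4 and 2 reads, and 0 naive sites. At 2 sites in the SNL list, 60.1% of genes had at least as many as Gfra3.

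Every listed base is followed by C and preceded by A or G in both lists. Read on the strand of the site alone, GAC, with the methylated A in the middle, was the centre of 27 of 37 SNL sites of Ret, Gfra1 and Gfra2 (73.0%), against 82.7% of all SNL sites, and of 12 of 13 naive sites (92.3%), against 83.5% of all naive sites. GGAC, a part of the GAC sites, was found at 8 of 37 SNL sites (21.6%, all sites 38.0%) and 4 of 13 naive sites (30.8%, all sites 39.1%). The 2 SNL sites of Gfra3 are left out of these 37, while the shares of all sites cover the whole lists. All sites of Ret, Gfra1 and Gfra3 lay on the minus strand and all sites of Gfra2 on the plus strand. One Gfra1 site also lay in the span of Gm10007 and one Gfra2 site in that of Gm34588. Exon boundaries were not used here, so whether a site is exonic or in a UTR is not given.

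**Figure D4:**
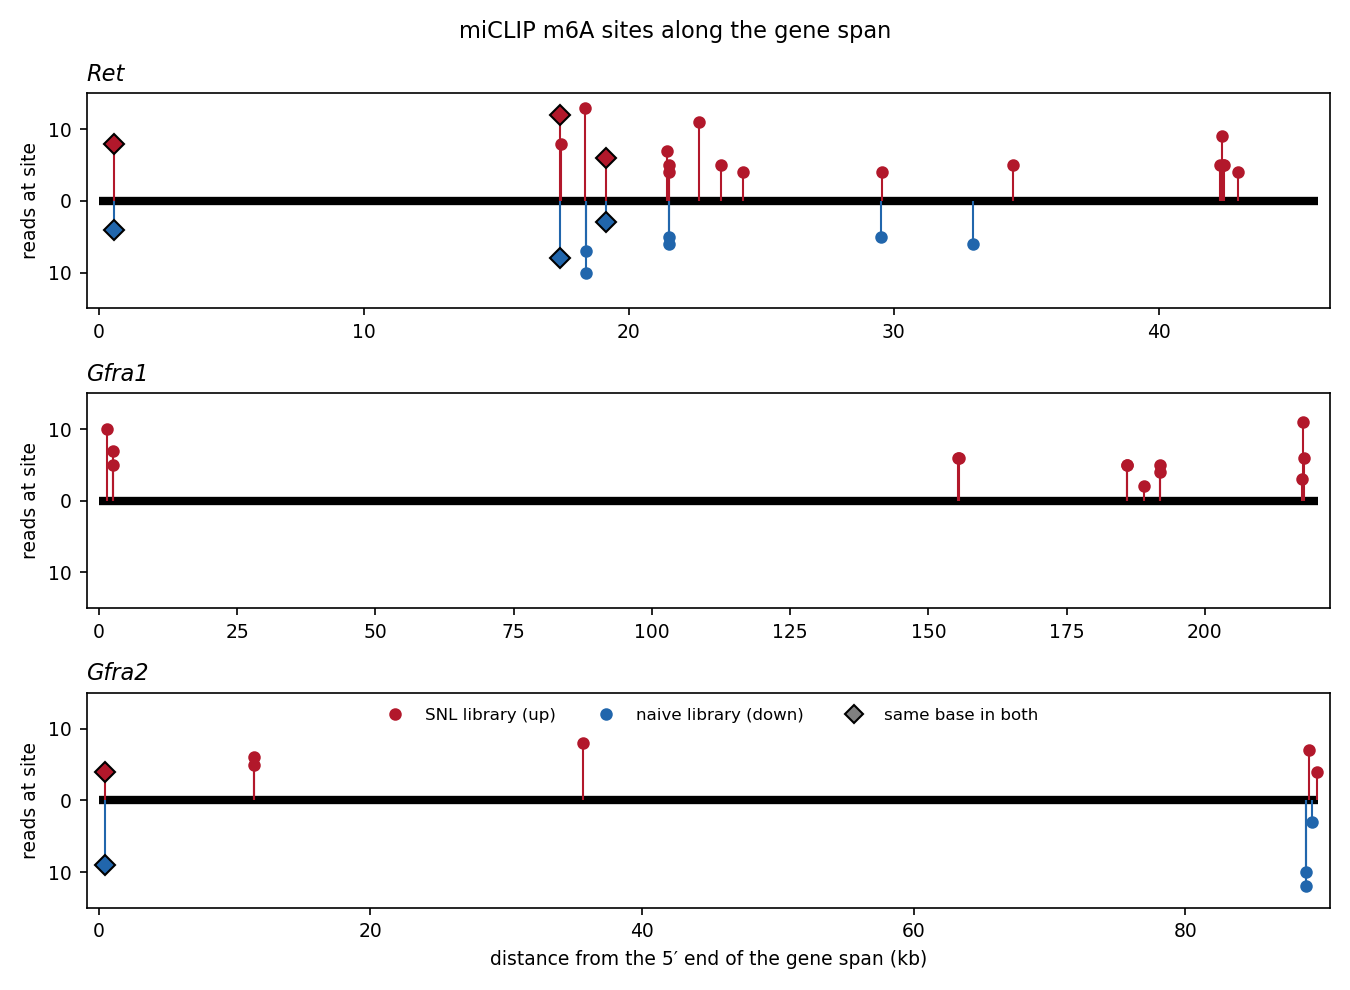
miCLIP sites of Ret, Gfra1 and Gfra2 by distance from the 5′ end of the gene span in kb (horizontal axis), with reads at the site on the vertical axis, SNL upward and naive downward, and diamonds for bases listed in both. Ret has 18 SNL and 9 naive sites with 3 diamonds, Gfra1 has 13 SNL and 0 naive sites, and Gfra2 has 6 SNL and 4 naive sites with 1 diamond.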

How the data were processed

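RNA-seq, MeRIP-seq and miCLIP of mouse L4/5 DRG were analysed from the authors' deposited tables. The deposited counts are unnormalised whole-number counts per gene symbol; per the submitters' processing notes the build is mm10 and the tools include Trimmomatic, STAR and DESeq2, with no versions or roles, and whether counting used strand is not given in the sources used here. Per the labels, RNA was extracted with Trizol and poly(A)-selected, and libraries followed Smart-seq2. The deposited miCLIP lists give, per site, the mutated and total reads and another value equal to their ratio. Counts were fitted in R 4.3.3 with edgeR 4.0.16 (filterByExpr, TMM, glmQLFit, glmQLFTest; 13291 and 14705 genes kept), with 4 groups in each table, Benjamini-Hochberg adjustment over all genes and calls at an adjusted p under 0.05. The fit was tested on simulated data. Likeness used log2 CPM with a prior count of 2. Alternatives were DESeq2 1.42.0, size factors, no filter, only the groups compared, a replicate block, leaving out each library, the Y-linked sum as a covariate and leaving out 3 shallow libraries; the last pair was chosen after seeing the data.

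Spearman correlation of replicates across genes was 0.967 to 0.984 (RNA-seq) or 0.711 to 0.887 (MeRIP-seq), and none were identical. The median SE of a log2 difference was 0.238 to 0.243 for the RNA-seq group comparisons and 0.955 to 1.51 in MeRIP-seq. IP libraries of the same number deviated together between SNLD1 and naive (r of 0.753, 0.549 and 0.807), a pairing that comes from the data and not from the labels. In RNA-seq the same-number correlations were mixed, from −0.042 to 0.617, beside −0.514 to 0.482 for different numbers. Printed values are from the unpaired fit, and the replicate block changed no member's MeRIP-seq call. Sites were assigned by position and strand to gene spans of GRCm38.p6, and at 425 of 425 sites in RefSeq promoter windows the deposited 5-base sequence was centred on the listed base. Strand came from the promoter table for the ligands and Gfra1 and from the sites for the other genes. Python 3.11.15, numpy 2.4.6, pandas 2.3.3, scipy 1.17.1 and matplotlib 3.10.9 were used. The members, pathway list, markers and tests were chosen with earlier results of these data known. All members were named, as were 6 fixed pathway genes, every pathway gene called in RNA-seq and the 3 genes most like each tested member.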

Additional observations from a re-analysis of the deposited data

How the results depend on the processing

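Of the 4 tested members, 1 was called between genotypes at SNLD1 in the main design, where 1.46% of all genes were called. The count was 2, Ret joining Gfra1, with DESeq2, without a filter, with the replicate block (Ret edgeR adjusted p = 0.0205) and with the Y-linked sum as a covariate. The share of all genes called in those alternative fits is not given here, so a count of 2 has no background beside it. Without one library the count ranged from 0 to 2. The wild-type injury count of 1 ranged from 0 to 1 without one library. At a threshold of 3 mutated reads, 0 member sites remained in the SNL list and 0 in the naive list, against 39 and 13 as deposited. Of all sites, only 1.95% in the SNL list and 2.06% in the naive list reached that threshold. The block moved no other count of member calls. The labels give no pairing of RNA-seq libraries, and same-number correlations of deviations were mixed, from −0.042 to 0.617.

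Outside leaving out a library, 349 single-gene values kept direction and side of the threshold and 3 turned sign, all near 0: Gfra3 difference of injury effects with the block (0.017), Gfra3 between naive genotypes with the Y-linked covariate (0.000511), and the Gfra2 change of IP over input without the 3 shallow libraries (−0.00499). Sos1 between genotypes at SNLD1 passed with DESeq2 (adjusted p = 0.02998) and with the block (adjusted p = 0.0458), and the Dok5 wild-type lesion difference passed without a filter (adjusted p = 0.0306). The cause was not tested.

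Leaving out one library turned the sign of these log2 differences, none of them called. In RNA-seq, Gfra2 ran from −0.25 to 0.11 between naive genotypes and −0.092 to 0.11 with injury in Mettl14cKO. Gfra3 ran from −0.15 to 0.34 with injury in wild type, −0.090 to 0.24 in Mettl14cKO, −0.15 to 0.19 between naive genotypes, −0.23 to 0.25 at SNLD1 and −0.22 to 0.27 for the difference. Gfra4 ran from −0.44 to 0.056 with injury in wild type, −0.057 to 0.38 at SNLD1 and −0.36 to 0.13 for the difference. Ncam1 ran from −0.095 to 0.11 in wild type, −0.085 to 0.21 in Mettl14cKO and −0.11 to 0.17 for the difference, and Sdc3 from −0.27 to 0.035, −0.19 to 0.0021 and −0.11 to 0.21. Dok5 ran from −0.54 to 0.0033 with injury in Mettl14cKO and Sos1 from −0.11 to 0.032 in wild type. In MeRIP-seq, Ret ran from −1.49 to 0.068 for IP over input at SNLD1, −0.62 to 0.93 for its change and −0.50 to 1.05 within input. Gfra1 ran from −0.069 to 0.72 within input, Gfra2 from −0.018 to 0.97 for naive IP over input, −0.74 to 0.56 within IP and −0.098 to 1.53 for the change, and Gfra3 from −1.46 to 0.045 for the change.

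Depth limits the MeRIP-seq values, where the median SE reaches 1.51, and the sites, of which 90.2% in the naive list and 89.7% in the SNL list rest on 1 mutated read.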
